A study of Mus musculus with 10 samples.

Results

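The genes described here are 36 targets of the transcription factor p53 outside the BCL2 family, measured in mouse bone marrow cells that formed BCR-ABL+ colonies. They were taken from a list of mouse gene symbols that was chosen with earlier results of these data known. Every non-control probe whose transcript maps to one of the symbols was used, which gave 56 probes. Of the 36 genes, 35 had at least 1 probe bright enough to be tested, among 22008 genes tested in all. The exception was Sulf2, an enzyme that trims sulfate groups from heparan sulfate: its only probe was well above background in 1 of 4 Cdk6-K43M samples, in none of the Cdk6-/- samples and in none of the wild-type channels, and it is given no value.

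There were 4 samples of colonies with Cdk6-K43M, a CDK6 protein without kinase activity, 4 samples that lack CDK6 (Cdk6-/-), and 1 pool of the RNA of 4 wild-type (Cdk6+/+) samples. Bone marrow came from donor mice 6 weeks of age, was transduced with retrovirus, and grew for 10 days in methylcellulose to which no growth factor was added, and the colonies of all 3 groups are BCR-ABL+, which means that they express the oncogenic tyrosine kinase of the Philadelphia chromosome. Each mutant sample, labelled with Cy5, had an array with 2 colours to itself and was set against the wild-type pool in Cy3, and the 4 RNAs of each mutant were also pooled for 1 dye-swapped array per mutant, so that there were 10 arrays. The labels state that RNA was taken from picked colonies and do not give their lineage or how many colonies, animals or cultures stand behind a sample, so the p-values measure the spread between these samples, which may be technical.

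The p53 protein is kept scarce by the ubiquitin ligase MDM2 and accumulates after DNA damage, oncogene activity or other stress. It then binds paired copies of a short motif near its target genes and raises their transcription. The targets halt the cell cycle, start apoptosis, repair DNA, limit oxidative damage and growth signalling, and in part feed back on p53 itself. In BCR-ABL+ leukaemia p53 is a known barrier to transformation.

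The p53 motif can be read directly in the promoters of some of the genes. RefSeq promoter windows (assembly GRCm38.p6, 250 bases before to 50 bases after a start) were found for 29 of the 36 genes. A full p53 site, made of 2 copies of the p53 half-site consensus (10 bases each, at most 13 bases apart, read on both strands because the consensus is its own reverse complement), was present without mismatch in 1 of the 29 genes, or 3.45%, and in 0.074% of 27025 genes of the table. With 1 mismatch allowed it was present in 5 of the 29 (17.2%), and in 1.24% of all genes. Some genes had several windows, 41 for the 29 genes and 32851 for all genes. Windows were taken by gene symbol, and their starts were not matched to the transcript of the probe used. The list consists of known p53 targets, so these shares describe the list and are no result of the arrays. Parts of the windows of Cdkn1a, Ccng1, Polk and Rps27l are shown, with the 2 half-sites in capitals and the rest in lower case. They lie at chr17:29090892-29090951 (plus strand) for Cdkn1a, chr11:40755442-40755501 (minus strand) for Ccng1, chr13:96519378-96519437 (minus strand) for Polk and chr9:66946276-66946335 (plus strand) for Rps27l.
Cdkn1a: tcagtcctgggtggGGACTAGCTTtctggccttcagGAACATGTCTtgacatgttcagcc
Ccng1: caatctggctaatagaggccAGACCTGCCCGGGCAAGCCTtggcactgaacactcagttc
Polk: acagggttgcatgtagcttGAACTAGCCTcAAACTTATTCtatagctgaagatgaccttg
Rps27l: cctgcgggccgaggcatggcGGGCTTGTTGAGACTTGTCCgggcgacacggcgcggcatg
The half-sites of Cdkn1a stood 12 bases apart and began 73 bases upstream of the start, with no mismatch. Those of Ccng1 and Rps27l abutted, and those of Polk were 1 base apart, each with 1 mismatch. Directly after the second Cdkn1a half-site, the lower-case bases form another half-site with 1 mismatch, so an abutting pair there also met the rule. The fifth gene was Gtse1, whose match lay at the start of the transcript and is not shown. A match is a description of the letters and does not show that p53 binds there.

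As background for the whole series, the share of probes well above background was 46.9 to 49.9% in the mutant channel and 45.8 to 50% in the wild-type channel, no spot was saturated, and precision is limited by how few arrays there are. Cdk6 itself had 1 probe, with log2 ratios of 0.31, 0.40, 0.33 and 0.83 in Cdk6-K43M replicates 1 to 4 and -0.37, -0.40, -0.18 and 0.002 in Cdk6-/- replicates 1 to 4, each against the wild-type pool. The sources used here do not place this probe inside or outside the deleted exons, so it does not check the labels. Of the marker lists, 14 of 14 B-lineage progenitor, 15 of 18 granulocyte, monocyte and macrophage, 7 of 11 T and NK cell and 4 of 9 erythroid and megakaryocyte markers could be tested. Cdk6-K43M replicate 4 stood apart by part of its macrophage genes: Lyz2 was at 2.24, Adgre1 at 2.07 and Cd14 at 1.99 there, while the other 3 Cdk6-K43M samples were at -0.74 to -0.001 for Lyz2, -1.60 to -0.73 for Adgre1 and -0.76 to -0.34 for Cd14. In that sample Csf1r (1.95), Lgals3 (1.85), Cd68 (1.76) and Cd5l (1.29) were also above the pool. Other markers of the list were not, with Itgam at -0.003, Mrc1 at -0.11 and S100a9 at -3.48, and the list median there was -0.003. The counts of targets, and the values of Fas, Gdf15, Pltp and Plk3, are therefore given with and without Cdk6-K43M replicate 4. The swapped Cdk6-K43M pool, which holds RNA of that sample, stayed in the fits against the wild-type pool.

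The targets lay mostly below the wild-type pool in both mutants. Against the pool, 16 of 35 fell in Cdk6-K43M (45.7%) and 2 rose (5.71%), at an adjusted p under 0.05 (limma, Benjamini-Hochberg over all 22008 genes). Among all genes 10.3% fell and 9.79% rose in that comparison. In Cdk6-/- 13 of 35 fell (37.1%) and 1 rose (2.86%), where 3.85% of all genes fell and 3.39% rose. The list was chosen with earlier results of these data known, so these shares are not those of an independent list. The median log2 change of the 35 targets was -0.28 in Cdk6-K43M and -0.28 in Cdk6-/-, beside medians over all genes of -0.0104 in Cdk6-K43M and 0.00137 in Cdk6-/-. Between the mutants, set against each other, 1 target was higher in Cdk6-K43M and none was lower, where 0.264% of all genes were higher and 0.25% lower. At an unadjusted p under 0.05, 3095 of all genes differed between the mutants.

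**Figure D1:**
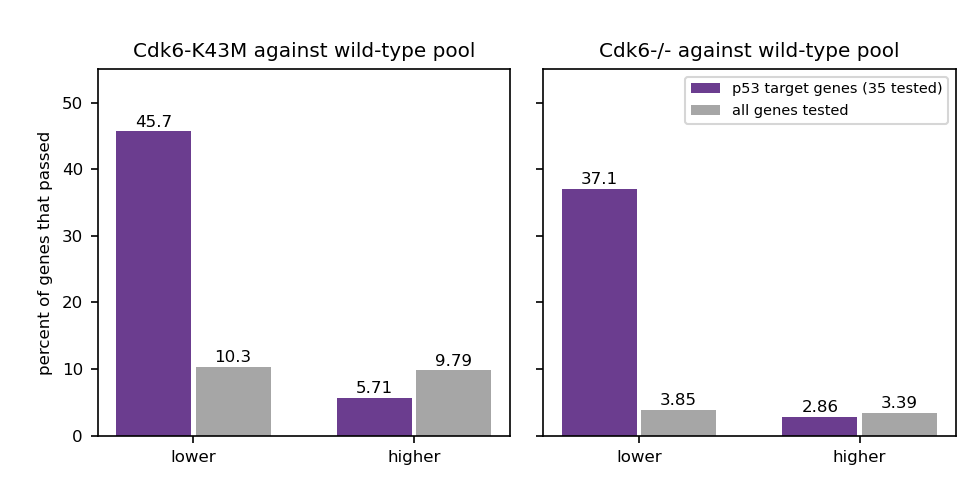
Percent of genes that fell (lower) or rose (higher) at an adjusted p under 0.05 against the wild-type pool, in Cdk6-K43M (left) and Cdk6-/- (right), for the 35 p53 target genes tested (purple bars) and for all 22008 genes tested (grey bars). The purple bars for lower genes reach 45.7% and 37.1%, against 10.3% and 3.85% for all genes, while the bars for higher genes are 5.71% and 2.86%, against 9.79% and 3.39%.

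Both comparisons share the wild-type pool, which is 1 control sample whose own spread is unknown, and any deviation of that pool moves both mutants the same way. With standard errors widened as if the pool varied like the mean of 4 samples, 6 targets fell and 2 rose in Cdk6-K43M, and 1 fell in Cdk6-/-, namely Polk. Of all genes, 5.58% passed in Cdk6-K43M and 0.563% in Cdk6-/- with the widened errors. With arrays centred on the median in place of loess, 10 targets fell and 3 rose in Cdk6-K43M, and 9 fell and 1 rose in Cdk6-/-. Of all genes, 28.9% passed in Cdk6-K43M and 3.64% in Cdk6-/- under that scaling. That scaling moved the median over all genes to 0.112 in Cdk6-K43M and 0.0332 in Cdk6-/-, and the lower share of all calls was 12.1% in Cdk6-K43M and 36.5% in Cdk6-/-, where loess gave 51.3% in Cdk6-K43M and 53.2% in Cdk6-/-. Gtse1, Ei24, Aen, Ercc5, Sesn1 and Rps27l did not pass in Cdk6-K43M under it, and Ccng1 (-0.26), Btg2 (-0.38), Pidd1 (-0.29), Polk (-0.24) and Sesn2 (-0.27) passed there with smaller changes. Gtse1, Aen, Gdf15 and Rps27l did not pass in Cdk6-/- under that scaling. Eda2r and Perp passed the filter on dim probes only through the wild-type channels, a selection that favours low mutant values. Perp was still at 0.27 in Cdk6-/-, which did not pass. Without Eda2r and Perp, 15 of 33 targets fell (45.5%) and 2 rose in Cdk6-K43M, and 12 of 33 fell (36.4%) and 1 rose in Cdk6-/-, counts chosen after seeing the data. Without Cdk6-K43M replicate 4, 17 targets fell and 2 rose in Cdk6-K43M, where 19.7% of all genes passed. In bulk RNA, fewer cells of a type and less RNA per cell cannot be told apart.

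**Figure D2:**
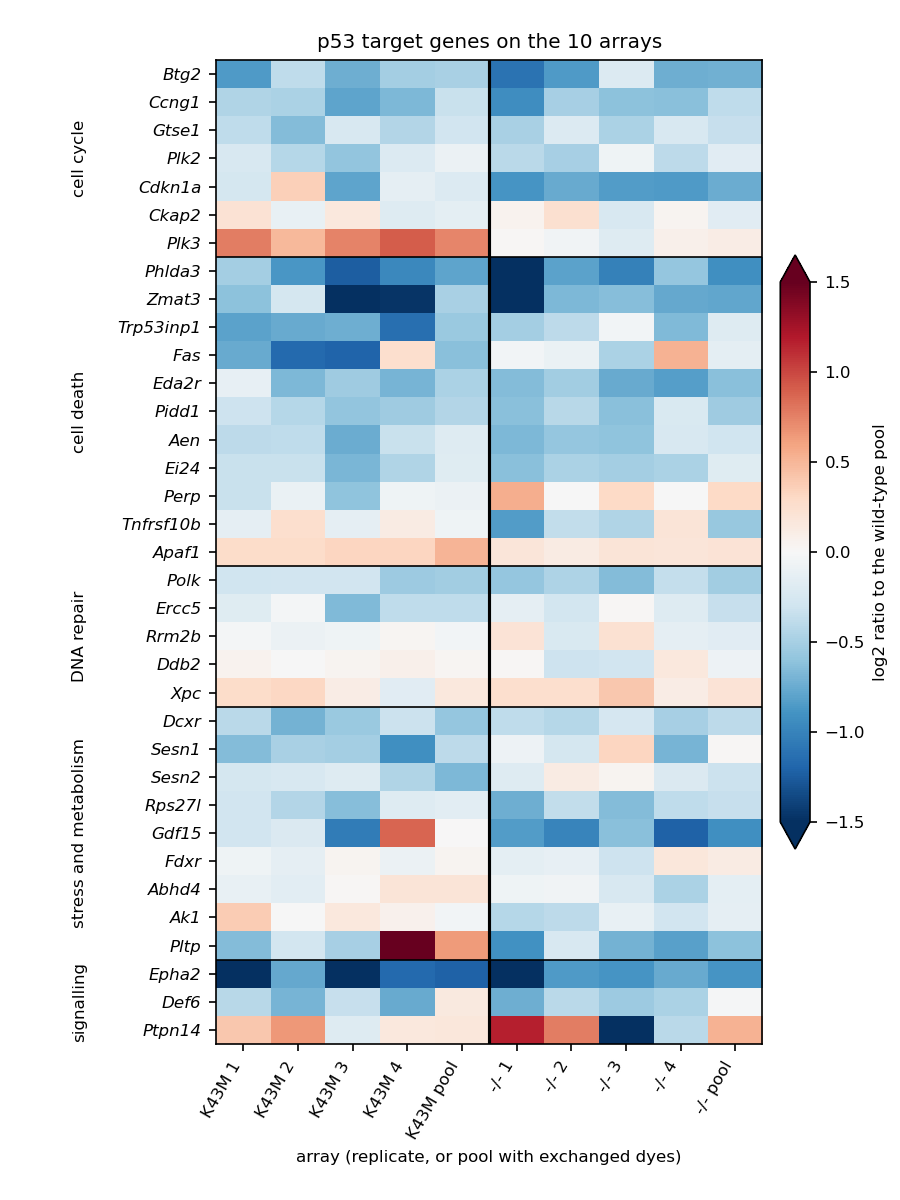
Log2 ratio to the wild-type pool (colour, blue lower and red higher, saturated at 1.5 either way) of the 35 tested p53 target genes (rows, grouped by role) on the 10 arrays (columns), with Cdk6-K43M left of the black line and Cdk6-/- (labelled -/-) right of it. Most rows are blue on both sides, Plk3 is red in all 5 Cdk6-K43M columns and pale in the Cdk6-/- columns, and Pltp and Gdf15 are red in Cdk6-K43M replicate 4.

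Among the 7 targets that act on the cell cycle, 3 fell and 1 rose in Cdk6-K43M, and 4 fell in Cdk6-/-. Of all genes, 10.3% fell and 9.79% rose in Cdk6-K43M, and 3.85% fell and 3.39% rose in Cdk6-/-. The counts of every role group and gene list below are to be read beside these shares. Cdkn1a encodes p21, the inhibitor of cyclin-dependent kinases through which p53 arrests cells in G1. Its log2 ratios were -0.26, 0.36, -0.79 and -0.14 in Cdk6-K43M replicates 1 to 4 and -0.20 in the swapped pool. In Cdk6-/- they were -0.88, -0.76, -0.83 and -0.85, and -0.75 in the swapped pool. The Cdk6-/- samples sat close together, while the Cdk6-K43M samples scattered on both sides of the pool and only replicate 3 reached the range of Cdk6-/-. The change of -0.19 in Cdk6-K43M (95% interval -0.50 to 0.12, adjusted p = 0.372) did not pass, and that of -0.80 in Cdk6-/- did (SE 0.138, adjusted p = 0.0119). The difference of 0.62 between the mutants did not pass either (95% interval 0.16 to 1.09, adjusted p = 0.244). A second Cdkn1a probe gave -0.39 in Cdk6-K43M and -1.05 in Cdk6-/-.

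Plk3, a stress-responsive polo-like kinase, was the target that differed between the mutants. It stood at 0.77, 0.49, 0.75 and 0.91 in Cdk6-K43M, with 0.74 in the swapped pool, and at 0.01, -0.06, -0.19 and 0.07 in Cdk6-/-, with 0.12 in the swapped pool. Every Cdk6-K43M sample lay above every Cdk6-/- sample. Plk3 rose by 0.75 in Cdk6-K43M (SE 0.071, adjusted p = 0.000176) and was at 0.015 in Cdk6-/- (adjusted p = 0.922). The mutants differed by 0.77 (SE 0.104, 95% interval 0.53 to 1.00, adjusted p = 0.0201). With Agilent's processed signals the change in Cdk6-K43M was 1.26 and the difference between the mutants 1.31. That difference was 0.71 without Cdk6-K43M replicate 4 (adjusted p = 0.0467), and it did not pass once slide was a block (adjusted p = 0.102), nor without Cdk6-/- replicate 1, 2 or 3 or Cdk6-K43M replicate 1 or 3. Plk2, a related kinase, had changes of -0.24 in each mutant that did not pass (adjusted p = 0.0652 in Cdk6-K43M and 0.109 in Cdk6-/-).

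Ccng1 encodes cyclin G1, which recruits a phosphatase to MDM2. It was at -0.46, -0.47, -0.80 and -0.67 in Cdk6-K43M and at -0.94, -0.50, -0.62 and -0.63 in Cdk6-/-, with swapped pools at -0.33 for Cdk6-K43M and -0.38 for Cdk6-/-. All 8 samples were below the pool, with the mutants overlapping, and the fitted change was -0.46 in Cdk6-K43M (adjusted p = 0.00334) and -0.53 in Cdk6-/- (adjusted p = 0.00605). Btg2, an antiproliferative cofactor of mRNA deadenylation, stood at -0.85, -0.39, -0.74 and -0.51 in Cdk6-K43M and at -1.11, -0.85, -0.20 and -0.73 in Cdk6-/-. It changed by -0.57 in Cdk6-K43M and -0.70 in Cdk6-/-, with Cdk6-/- replicate 3 closest to the pool. Gtse1 encodes a microtubule-associated protein of G2 and S phase that binds p53. Its ratios were -0.38, -0.65, -0.24 and -0.45 in Cdk6-K43M and -0.48, -0.21, -0.48 and -0.24 in Cdk6-/-. Gtse1 changed by -0.38 in Cdk6-K43M (adjusted p = 0.00682) and -0.33 in Cdk6-/- (adjusted p = 0.0311). Under median centring neither passed, at -0.19 in Cdk6-K43M (adjusted p = 0.214) and -0.295 in Cdk6-/- (adjusted p = 0.15). The Cdk6-K43M call held under 15 of 18 alternative settings and the Cdk6-/- call under 11 of 18. Ckap2, a spindle protein, had samples on both sides of the pool in each mutant and a change of -0.07 in both, neither of which passed.

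Of the 11 targets that take part in cell death, 6 fell and 1 rose in Cdk6-K43M, and 5 fell and 1 rose in Cdk6-/-, each count with Eda2r among the genes that fell. Phlda3 encodes a small lipid-binding protein that competes with AKT for the membrane. It was at -0.51, -0.87, -1.23 and -0.96 in Cdk6-K43M and at -1.61, -0.80, -1.01 and -0.58 in Cdk6-/-, with swapped pools at -0.79 for Cdk6-K43M and -0.92 for Cdk6-/-. No sample of either mutant came near the pool. The change of -0.85 in Cdk6-K43M (SE 0.154, adjusted p = 0.0046) and that of -0.96 in Cdk6-/- (SE 0.154, adjusted p = 0.00863) were exceeded in size only by those of Epha2 among the 35 targets.

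Trp53inp1 encodes a nuclear protein that favours p53-dependent death and autophagy. Its ratios were -0.80, -0.75, -0.73 and -1.13 in Cdk6-K43M and -0.51, -0.39, -0.04 and -0.66 in Cdk6-/-, with swapped pools at -0.56 for Cdk6-K43M and -0.20 for Cdk6-/-. The 4 Cdk6-K43M samples were all below the 4 Cdk6-/- samples. Trp53inp1 fell in Cdk6-K43M (-0.72, SE 0.0984, adjusted p = 0.00117), while the change of -0.28 in Cdk6-/- did not pass (adjusted p = 0.111). The difference of -0.45 between the mutants did not pass (95% interval -0.79 to -0.12, adjusted p = 0.234).

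Pidd1, a scaffold of the caspase-2 activating complex, had values of -0.31, -0.43, -0.59 and -0.54 in Cdk6-K43M and of -0.62, -0.41, -0.62 and -0.23 in Cdk6-/-. It changed by -0.46 in Cdk6-K43M (adjusted p = 0.00234) and by -0.49 in Cdk6-/- (adjusted p = 0.00661). These values come from the brighter of 2 probes, and the other gave 0.004 in Cdk6-K43M and 0.04 in Cdk6-/-, so the call rests on 1 probe, and the mean of both probes changed by -0.23 in each mutant. For Ei24, an endoplasmic reticulum protein induced during p53-dependent death, the ratios were -0.34, -0.34, -0.68 and -0.45 in Cdk6-K43M and -0.62, -0.47, -0.51 and -0.47 in Cdk6-/-. For Aen, an apoptosis-enhancing nuclease, they were -0.40, -0.38, -0.74 and -0.34 in Cdk6-K43M and -0.68, -0.58, -0.60 and -0.24 in Cdk6-/-. Both genes were below the pool in all 8 samples. Ei24 changed by -0.30 in Cdk6-K43M and -0.36 in Cdk6-/-, and Aen by -0.34 in Cdk6-K43M and -0.41 in Cdk6-/-. With median centring the Cdk6-K43M changes were -0.11 for Ei24 (adjusted p = 0.263) and -0.06 for Aen (adjusted p = 0.682), and neither passed. Aen did not pass in Cdk6-/- under it either (-0.36, adjusted p = 0.0508). The further probes of both genes had the same sign.

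Eda2r, a receptor for an ectodysplasin isoform, was dim. Its probe was well above background in 1 of 4 Cdk6-K43M samples, in 0 of 4 Cdk6-/- samples and in the wild-type channel of 10 of 10 arrays. The ratios were -0.12, -0.67, -0.54 and -0.70 in Cdk6-K43M and -0.65, -0.53, -0.75 and -0.82 in Cdk6-/-. As no Cdk6-/- sample passed that mark, only a bound can be given there, set by the lowest signals that were well above background: the level of Eda2r there was at least 1.5-fold lower than in the wild-type pool. In Cdk6-K43M the fitted change was -0.49, and its size depended on the handling of background, at -0.92 in the authors' deposited table and -1.78 with Agilent's processed signals. As the probe was tested only because the wild-type channels were bright, its calls support nothing.

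Apaf1, the core of the apoptosome that activates caspase-9, went the other way. It was at 0.28, 0.27, 0.32 and 0.32 in Cdk6-K43M, with 0.51 in the swapped pool, and at 0.18, 0.12, 0.19 and 0.18 in Cdk6-/-, with 0.20 in the swapped pool. All 8 samples were above the wild-type pool within a narrow spread, the Cdk6-K43M samples all above those of Cdk6-/-. Apaf1 rose by 0.38 in Cdk6-K43M (SE 0.0438, adjusted p = 0.000535) and by 0.21 in Cdk6-/- (adjusted p = 0.0226). A second Apaf1 probe gave -0.05 in Cdk6-K43M and -0.07 in Cdk6-/-, so the rise rests on 1 probe. The mean of both probes rose by 0.16 in Cdk6-K43M and did not pass in Cdk6-/- (0.07, adjusted p = 0.298).

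Fas, the death receptor, was at -0.76, -1.17, -1.20 and 0.25 in Cdk6-K43M and at -0.05, -0.10, -0.47 and 0.52 in Cdk6-/-. In each mutant replicate 4 alone was above the pool. The change of -0.70 in Cdk6-K43M did not pass (adjusted p = 0.0515), but without Cdk6-K43M replicate 4, the sample with high macrophage genes, it was -0.90 and passed (adjusted p = 0.0052). The swapped pool, which holds RNA of that sample, stayed in that fit. In Cdk6-/- the change was -0.05 (95% interval -0.55 to 0.45). A second Fas probe gave -0.28 in Cdk6-K43M and 0.01 in Cdk6-/-. Zmat3, an RNA-binding protein that regulates splicing, had the largest mean among the targets that passed in neither mutant. Its ratios were -0.62, -0.27, -1.60 and -1.47 in Cdk6-K43M and -2.02, -0.67, -0.63 and -0.77 in Cdk6-/-. All 8 were negative but they spread widely, and neither the change of -0.78 in Cdk6-K43M (adjusted p = 0.0637) nor that of -0.86 in Cdk6-/- (adjusted p = 0.0773) passed. The 2 remaining death genes did not pass: Tnfrsf10b, the mouse TRAIL receptor, had changes of -0.04 in Cdk6-K43M and -0.45 in Cdk6-/-, and Perp, a membrane protein that was well above background in 1 of 4 Cdk6-K43M and 2 of 4 Cdk6-/- samples, had -0.20 in Cdk6-K43M and 0.27 in Cdk6-/-.

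**Figure D3:**
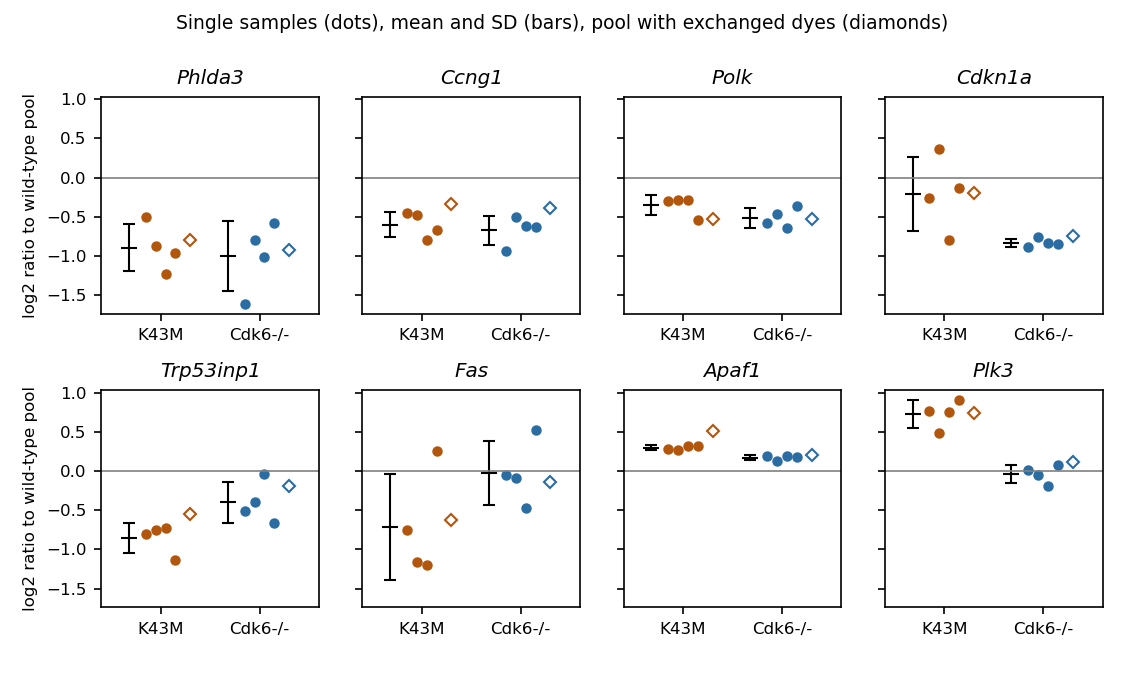
Log2 ratio to the wild-type pool (vertical axis) of 8 p53 target genes in Cdk6-K43M (orange, left) and Cdk6-/- (blue, right): dots are the 4 single samples, open diamonds the pools with exchanged dyes, and black bars the mean and SD of the 4 samples. The 4 Cdk6-K43M dots of Plk3 lie between 0.49 and 0.91, all above the Cdk6-/- dots, while Cdkn1a is tight in Cdk6-/- (-0.88 to -0.76) and scattered in Cdk6-K43M (-0.79 to 0.36).

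Of the 5 targets that act in DNA repair and nucleotide supply, 2 fell in Cdk6-K43M and 1 fell in Cdk6-/-. Polk encodes DNA polymerase kappa, which copies past damaged bases. It was at -0.30, -0.28, -0.28 and -0.54 in Cdk6-K43M and at -0.58, -0.46, -0.65 and -0.36 in Cdk6-/-, with swapped pools at -0.53 for Cdk6-K43M and -0.52 for Cdk6-/-. All 8 samples were below the pool. Its change was -0.41 in Cdk6-K43M (SE 0.0654, adjusted p = 0.0023) and -0.54 in Cdk6-/- (SE 0.0654, adjusted p = 0.00197), and both passed under all 18 alternative settings. The other kept Polk probes gave smaller negative values, -0.14 and -0.07 in Cdk6-K43M and -0.30 and -0.08 in Cdk6-/-, and the mean over probes changed by -0.21 in Cdk6-K43M and -0.31 in Cdk6-/-. Ercc5, the XPG endonuclease of nucleotide excision repair, was at -0.18, -0.03, -0.66 and -0.38 in Cdk6-K43M and at -0.14, -0.27, 0.02 and -0.20 in Cdk6-/-. It fell in Cdk6-K43M (-0.37, adjusted p = 0.0204, not passed under median centring with an adjusted p of 0.122) and did not pass in Cdk6-/- (-0.23, adjusted p = 0.164), and the difference of -0.17 between the mutants did not pass (95% interval -0.48 to 0.14).

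The damage sensors Ddb2 and Xpc and the ribonucleotide reductase subunit Rrm2b did not pass in either mutant. Their changes were 0.04, 0.13 and -0.07 in Cdk6-K43M and -0.09, 0.24 and -0.05 in Cdk6-/-. Ddb2 was bounded to between -0.13 and 0.21 in Cdk6-K43M and between -0.26 and 0.07 in Cdk6-/- by its 95% intervals.

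The 9 targets of stress, redox and metabolism had 4 that fell in Cdk6-K43M and 3 that fell in Cdk6-/-. Dcxr, a reductase of xylulose and of reactive carbonyls, had -0.41, -0.71, -0.56 and -0.32 in Cdk6-K43M and -0.38, -0.43, -0.26 and -0.50 in Cdk6-/-. All samples were below the pool and the mutants overlapped. It changed by -0.53 in Cdk6-K43M (adjusted p = 0.000906) and -0.40 in Cdk6-/- (adjusted p = 0.0109). Rps27l, a p53-induced relative of ribosomal protein S27, was at -0.29, -0.44, -0.64 and -0.20 in Cdk6-K43M and at -0.73, -0.38, -0.65 and -0.38 in Cdk6-/-. Its change was -0.28 in Cdk6-K43M (adjusted p = 0.0392) and -0.43 in Cdk6-/- (adjusted p = 0.0177). The Cdk6-K43M call held under 8 of 18 alternative settings, and the Cdk6-/- call under 15 of 18. With arrays centred on the median in place of loess, the Cdk6-K43M value was 0.03 and no longer passed. The Cdk6-/- value was then -0.37 and did not pass either (adjusted p = 0.0625).

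The sestrins restrain mTORC1 and oxidative damage. Sesn1 was at -0.65, -0.49, -0.50 and -0.92 in Cdk6-K43M and at -0.08, -0.26, 0.32 and -0.70 in Cdk6-/-. Sesn2 was at -0.27, -0.24, -0.19 and -0.45 in Cdk6-K43M, with -0.67 in the swapped pool, and at -0.20, 0.12, 0.04 and -0.22 in Cdk6-/-, with -0.32 in the swapped pool. Both were below the wild-type pool in all 4 Cdk6-K43M samples and lay on both sides of it in Cdk6-/-. Sesn1 fell by 0.52 (adjusted p = 0.0232) and Sesn2 by 0.46 (adjusted p = 0.00182) in Cdk6-K43M. Sesn1 was at -0.31 with median centring and did not pass (adjusted p = 0.137), and Sesn2 was at -0.29 without the swapped arrays (adjusted p = 0.0194). In Cdk6-/- the changes of -0.07 for Sesn1 and -0.21 for Sesn2 did not pass. Neither difference between the mutants passed (-0.46, adjusted p = 0.35, for Sesn1, and -0.22, adjusted p = 0.366, for Sesn2).

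Gdf15 encodes a secreted cytokine of the TGF-beta family that marks cell stress. It was at -0.28, -0.22, -1.05 and 0.87 in Cdk6-K43M, with 0.01 in the swapped pool, and at -0.84, -0.99, -0.62 and -1.22 in Cdk6-/-, with -0.92 in the swapped pool. Of the 8 samples Cdk6-K43M replicate 4 alone was clearly above the wild-type pool, and in Cdk6-/- the probe was well above background in 2 of 4 samples. Gdf15 fell in Cdk6-/- by 0.89 (SE 0.234, adjusted p = 0.0492) and was at -0.11 in Cdk6-K43M (95% interval -0.63 to 0.41), and the difference of 0.75 did not pass (adjusted p = 0.371). Without the array of Cdk6-K43M replicate 4, but with the swapped pool that holds its RNA, the Cdk6-K43M change was -0.32 (adjusted p = 0.185). The difference, which uses no swapped pool, was then 0.40 (adjusted p = 0.522), and neither passed. The size in Cdk6-/- depended on the handling of background, at -1.42 in the authors' deposited table and -2.15 with Agilent's processed signals. The Cdk6-/- call held under 5 of 18 alternative settings and was lost without any 1 of the 4 Cdk6-/- samples. Pltp, the phospholipid transfer protein, was at -0.65, -0.28, -0.50 and 1.66 in Cdk6-K43M and at -0.91, -0.24, -0.71 and -0.81 in Cdk6-/-. Again Cdk6-K43M replicate 4 was the one sample above the pool, as was the swapped Cdk6-K43M pool that holds its RNA (0.64). The change of 0.27 in Cdk6-K43M did not pass (adjusted p = 0.609). With the array of that sample left out but the swapped pool kept, it was -0.06 (adjusted p = 0.85). The remaining Cdk6-K43M samples were at -0.65, -0.28 and -0.50, so the value of -0.06 still carries RNA of replicate 4. The change of -0.56 in Cdk6-/- did not pass (adjusted p = 0.301).

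The remaining 3 enzymes of this group, the mitochondrial ferredoxin reductase Fdxr, the adenylate kinase Ak1 and the lipid hydrolase Abhd4, did not pass in either mutant. Their changes ranged between 0.01 and 0.11 in Cdk6-K43M and between -0.28 and -0.01 in Cdk6-/-. Ak1 was the farthest apart of these, with 0.11 in Cdk6-K43M and -0.28 in Cdk6-/-, and its difference of 0.46 did not pass (adjusted p = 0.139).

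**Figure D4:**
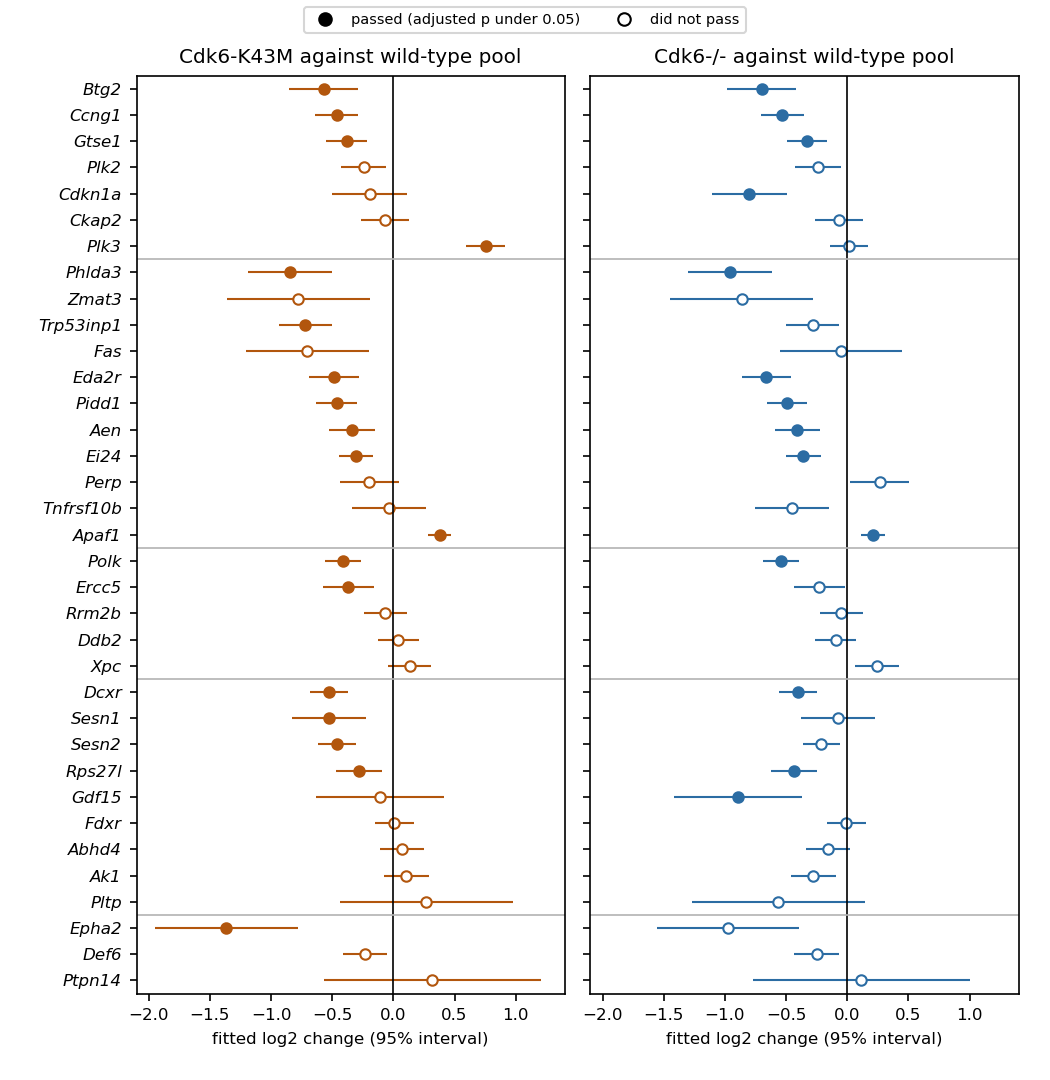
Fitted log2 change against the wild-type pool (horizontal axis, lines give the 95% interval) of the 35 tested p53 target genes in Cdk6-K43M (left) and Cdk6-/- (right), with filled circles for changes that passed at an adjusted p under 0.05 and open circles for those that did not. Epha2 in Cdk6-K43M lies lowest at -1.36, Plk3 highest at 0.75, and the widest intervals belong to Ptpn14, Pltp, Zmat3 and Epha2.

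The signalling targets were few, and 1 of 3 tested fell in Cdk6-K43M and none in Cdk6-/-. Epha2, an ephrin receptor kinase, was the lowest of all targets in Cdk6-K43M, at -1.49, -0.77, -2.56 and -1.17, with -1.21 in the swapped pool. In Cdk6-/- it was at -1.87, -0.85, -0.89 and -0.75, with -0.88 in the swapped pool. All 8 samples were far below the pool. The change of -1.36 in Cdk6-K43M passed (SE 0.261, adjusted p = 0.00582) and that of -0.97 in Cdk6-/- did not (SE 0.261, adjusted p = 0.0523), with a difference of -0.41 that did not pass (adjusted p = 0.671). Def6, a guanine nucleotide exchange factor of lymphocytes, was at -0.41, -0.70, -0.34 and -0.76 in Cdk6-K43M and at -0.73, -0.40, -0.55 and -0.47 in Cdk6-/-. With exchanged dyes it was at 0.14 in the Cdk6-K43M pool and -0.01 in the Cdk6-/- pool, so the deficit was not seen in that orientation, and a dye effect of -0.30 passed for Def6 (adjusted p = 0.0197). Its changes of -0.23 in Cdk6-K43M and -0.25 in Cdk6-/- did not pass. Ptpn14, a phosphatase that restrains YAP, was between -0.20 and 0.65 in Cdk6-K43M and between -1.85 and 1.16 in Cdk6-/-, where it scattered more than any other target, and it did not pass in either mutant. Its 2 dimmer probes gave changes between -0.015 and 0.11.

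The genes that set p53 activity were measured on the same arrays. Of 10 such genes, 4 fell and 2 rose in Cdk6-K43M, and 2 fell in Cdk6-/-. Trp53, the gene of p53 itself, was at 0.72, 0.45, 0.37 and 0.34 in Cdk6-K43M, with 0.13 in the swapped pool, and at 0.38, 0.46, 0.34 and 0.03 in Cdk6-/-, with -0.21 in the swapped pool. No single sample was below the wild-type pool. Trp53 mRNA rose by 0.27 in Cdk6-K43M (adjusted p = 0.0429), and its change of 0.07 in Cdk6-/- did not pass (adjusted p = 0.638). The difference of 0.17 between the mutants did not pass (adjusted p = 0.565). Mdm2, both the main inhibitor and a target of p53, had -0.12, -0.14, -0.15 and -0.04 in Cdk6-K43M and -0.21, -0.14, 0.04 and -0.08 in Cdk6-/-, with swapped pools at -0.41 for Cdk6-K43M and -0.34 for Cdk6-/-. The single samples were close to the pool and the swapped pools lower, and the fitted change was -0.25 in Cdk6-K43M (adjusted p = 0.00756) and -0.225 in Cdk6-/- (adjusted p = 0.0305). Ppm1d, the phosphatase WIP1 that switches the p53 response off and is a target too, fell by 0.46 in Cdk6-K43M and by 0.39 in Cdk6-/-. Rchy1, a p53 ubiquitin ligase, fell by 0.68 in Cdk6-K43M. Its change of -0.21 in Cdk6-/- did not pass (adjusted p = 0.156), nor did the difference of -0.46 between the mutants (adjusted p = 0.181).

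The 4 p53 targets of the BCL2 family were also measured, with 3 that fell and 1 that rose in Cdk6-K43M and 3 that fell in Cdk6-/-. Bbc3 (PUMA) changed by -1.05 in Cdk6-K43M and -0.62 in Cdk6-/-, and Pmaip1 (NOXA) by -1.18 in Cdk6-K43M and -1.42 in Cdk6-/-. Bax changed by -0.45 in Cdk6-K43M and -0.48 in Cdk6-/-, with a dye effect of -0.31 that passed (adjusted p = 0.0257). Bid rose by 0.68 in Cdk6-K43M and was at 0.03 in Cdk6-/- (adjusted p = 0.861). The difference of 0.64 between the mutants for Bid did not pass (adjusted p = 0.0944). Of 8 further p53 targets that could be tested, 4 fell in Cdk6-K43M and 4 in Cdk6-/-, and none rose. Slc19a2, a thiamine transporter, changed by -0.64 in Cdk6-K43M and -0.60 in Cdk6-/-, and Psrc1 by -0.43 in Cdk6-K43M and -0.65 in Cdk6-/-. Trp53i13 was at -0.32 in Cdk6-/- (adjusted p = 0.0124) and at -0.006 in Cdk6-K43M, which did not pass.

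Other gene groups moved on the same arrays. Of all genes, 10.3% fell and 9.79% rose in Cdk6-K43M, and 3.85% fell and 3.39% rose in Cdk6-/-. Of 15 proliferation genes, 6 fell in Cdk6-K43M (40%) and 5 in Cdk6-/- (33.3%). These shares were near those of the p53 targets, at 45.7% in Cdk6-K43M and 37.1% in Cdk6-/-. Rrm2, a ribonucleotide reductase subunit of S phase, was at -0.68 in each mutant. Of the 15 myeloid markers tested, 6 fell in Cdk6-K43M and 8 in Cdk6-/-, and none rose. S100a8, Ngp, Camp, Mpo and Mrc1 are in both counts and passed the filter on dim probes only through the wild-type channels. That selection favours low mutant values, so their calls support nothing. The neutrophil gene S100a9 was at -3.94 in Cdk6-K43M and -4.16 in Cdk6-/-. The median of the myeloid list was -0.945, -0.466, -0.861 and -0.003 in Cdk6-K43M replicates 1 to 4 and -1.35, -0.585, -0.747 and -1.002 in Cdk6-/- replicates 1 to 4. The median of the 35 p53 targets on the same arrays was -0.287, -0.28, -0.537 and -0.206 in Cdk6-K43M and -0.485, -0.375, -0.453 and -0.38 in Cdk6-/-. The sample with the highest myeloid median, Cdk6-K43M replicate 4, also had the p53 target median nearest to the pool, and the target median was below the pool in all 8 samples. Among 14 B-lineage markers, 2 fell and 5 rose in Cdk6-K43M and 1 rose in Cdk6-/-. Of 7 T and NK cell markers, 1 fell and 2 rose in Cdk6-K43M, and 2 fell and 2 rose in Cdk6-/-. Thy1 was at 2.79 in Cdk6-K43M and 2.14 in Cdk6-/-, and Cd2 at -1.32 in Cdk6-K43M and -1.19 in Cdk6-/-. Tcf7 was higher in Cdk6-K43M than in Cdk6-/- by 0.52 (adjusted p = 0.047), with its probe well above background in 4 of 4 Cdk6-K43M and 0 of 4 Cdk6-/- samples. Of 4 erythroid and megakaryocyte markers, none passed in Cdk6-K43M and 1 rose in Cdk6-/-. The part of cell makeup and of proliferation in the p53 target values was not tested.

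**Figure D5:**
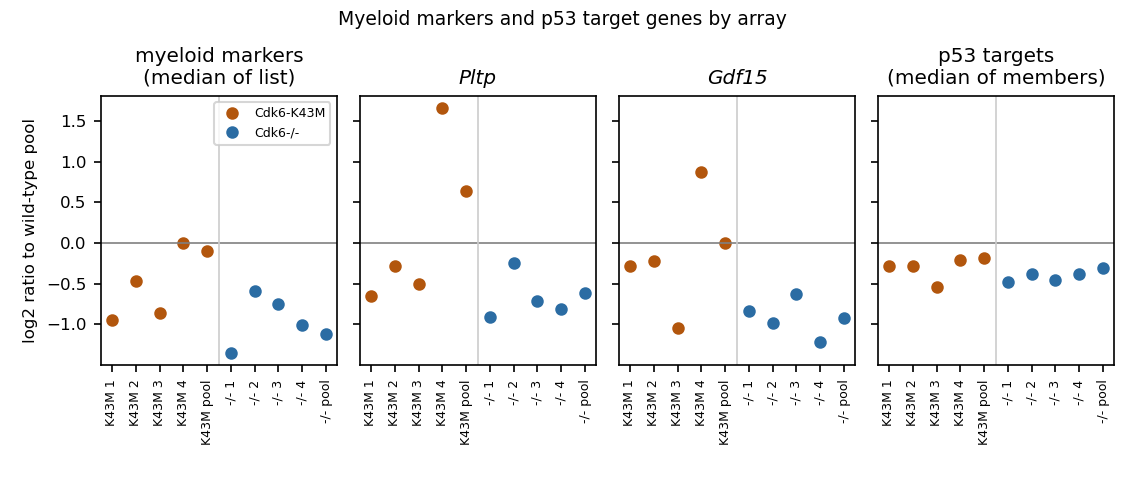
Log2 ratio to the wild-type pool (vertical axis) on the 10 arrays, with Cdk6-K43M in orange and Cdk6-/- (labelled -/-) in blue, for the median of 15 myeloid markers, Pltp, Gdf15 and the median of 35 p53 target genes. Cdk6-K43M replicate 4 is the highest array for the myeloid median (-0.003), Pltp (1.66) and Gdf15 (0.87), while the p53 target median there is -0.206.

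Slides were the only technical batch that the files show. The arrays lay on 3 slides and each slide held both mutants. On each slide, the 18 targets that passed in Cdk6-K43M and the 14 that passed in Cdk6-/- kept the sign of their change. These targets were picked by a fit to the same arrays, so that outcome was close to fixed in advance and does not test the slides. Within the slides, with the swapped pools included, the difference between the mutants was 0.757, 0.77 and 0.719 for Plk3, and 0.621, 0.849 and -0.041 for Cdkn1a. With slide as a block, 14 targets fell and 2 rose in Cdk6-K43M, and 11 fell and none rose in Cdk6-/-. Of all genes, 15.3% passed in Cdk6-K43M and 3.74% in Cdk6-/- with that block.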

How the data were processed

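RNA of 4 Cdk6-K43M samples, 4 Cdk6-/- samples and 1 wild-type pool was compared on 10 Agilent arrays with 2 colours (design 074809). Intensity values of spots and local background were read by Agilent Feature Extraction 11.5.1.1, and the probes refer to assembly mm9, per the file headers. The deposited log2 values, which the table's name calls loess normalized, were used as an alternative. Those values set against these arrays' ratios gave Pearson's r of 0.916 to 0.964 across spots, and 68 of its cells hold no number.

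Median signals were background corrected (normexp, offset 50) and loess normalized within arrays without control spots, with limma 3.58.1 in R 4.3.3 (and the package data.table, version 1.17.8). Figures were drawn with matplotlib 3.10.9. Spots that the scanner found not uniform were set to missing. RefSeq accessions named 58.3% of 56605 probes. A probe was kept if well above background in at least 3 of 4 samples of a mutant or 5 of 10 wild-type channels, and the brightest of the 28177 kept probes stood for a gene.

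Log2 ratios of mutant over wild type were fitted with lmFit and eBayes on all 10 arrays, with a dye term and swapped arrays in reversed sign (7 residual and 2.94 prior degrees of freedom, median SE 0.0728). The swapped pools hold the same RNA again, which the fit counts again. The contrast between the mutants used only the 8 arrays of single samples, on which the pool and the dye drop out (median SE 0.106, with 6 residual and 2.86 prior degrees of freedom). Benjamini-Hochberg adjustment ran over all genes tested, and an adjusted p under 0.05 passed.

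The members and gene lists were chosen with earlier results of these data known. Targets that passed in any comparison, and the 3 others with the largest mean ratio in each mutant, are given sample by sample. Of the other lists, every gene that passed is counted and a selection is named, plus Trp53 and Mdm2. Cell markers are named where they characterise a sample. Alternatives covered background correction, normalization, the filter, the choice of probe, slide and replicate blocks, the dye term, the pool's spread and leaving out each sample.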

Additional observations from a re-analysis of the deposited data

Results flagged for a closer look

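In groups of 4 samples, 6 values of the targets stood apart from the other 3 by Dixon's test at its 95% critical value. In all 70 groups were looked at, and chance marks about 1 in 20. In Cdk6-K43M, replicate 3 was lowest for Aen (-0.742). Replicate 4 of Cdk6-K43M was lowest for Trp53inp1 (-1.134) and Polk (-0.542) and highest for Pltp (1.656). In Cdk6-/-, replicate 1 was lowest for Zmat3 (-2.021) and Epha2 (-1.867). These are log2 ratios to the wild-type pool.

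Plk3 differed between the mutants under the same contrast with the pool, by 0.769 (Cdk6-K43M minus Cdk6-/-, limma, adjusted p = 0.0201), with every Cdk6-K43M sample above every Cdk6-/- sample.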

How the results depend on the processing

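Under the alternatives, the targets that passed gave 593 values, of which 514 kept call and direction, 78 lost the call and 1 changed sign. This was Rps27l in Cdk6-K43M, at 0.034 with median centring. Of 1262 values of targets that had not passed, 29 passed and 76 changed sign without passing. In Cdk6-K43M, median centring left 10 targets lower with a median of -0.106, where the median over all genes was 0.112, and it gave a median of 0.19 between the mutants. In Cdk6-/- the median of the targets was -0.343 without background correction, -0.35 in the deposited table, and -0.368 both with the replicate block and with the swapped arrays and dye term left out. With standard errors widened for the pool's spread, 8 targets passed in Cdk6-K43M (6 lower) and 1 in Cdk6-/- (1 lower, 0 higher). The number higher in Cdk6-/- was 0 with the mean of a gene's probes, with slide as a block and with the replicate block. Between the mutants, 0 targets passed (0 higher) with slide as a block and with the replicate block. Deviations of same-numbered samples correlated at 0.0839, -0.066, 0.228 and 0.139, and those of other pairs at -0.246 to 0.201. With so few samples these values cannot decide whether the numbers pair the samples. Leaving out 1 sample at a time, 14 to 18 targets were lower in Cdk6-K43M and 10 to 14 in Cdk6-/-, 0 to 2 were higher in Cdk6-/-, 0 to 1 passed and 0 to 1 were higher between the mutants, and the median between the mutants was 0.00159 to 0.138. Of all genes, 16.3 to 20.5% passed in Cdk6-K43M and 2.78 to 8.77% in Cdk6-/- with 1 sample left out. A left-out sample's RNA was still in its swapped pool.

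Over all genes, 4427 passed in Cdk6-K43M and 1593 in Cdk6-/-. In Cdk6-K43M 1229 passed with widened errors. In Cdk6-/- 124 passed with widened errors, 799 with Agilent's processed signals, 802 with median centring, 822 with slide as a block, 612 without Cdk6-/- replicate 1, 951 without Cdk6-/- replicate 2, 3292 without the swapped arrays and 2749 with the replicate block. The lower share of calls was 51.3% in Cdk6-K43M and 53.2% in Cdk6-/-, it was 33.6% in Cdk6-K43M and 42.7% in Cdk6-/- with processed signals, and 12.1% in Cdk6-K43M and 36.5% in Cdk6-/- with median centring. Between the mutants 113 genes passed, against 33 with slide as a block, 37 with the replicate block, 65 with processed signals, 559 with all 10 arrays and 36 to 77 with 1 sample left out. The cause of these shifts was not tested. Genes near background, such as Eda2r, Perp and Gdf15, are limited by signal.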
